A study of Mus musculus with 9 samples.

Results

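The endothelial identity genes are 34 genes that mark the cells lining blood vessels, taken as a list of gene names. They were read from the spots of the 9 arrays that carry their gene names, leaving out control spots. All 34 had at least 1 probe, 47 probes in total, and all 34 passed the filter on dim probes, so that they make up 34 of the 24150 features tested. The gene expression of glomeruli, the capillary tufts that filter the blood in the kidney, was measured on one-colour Agilent arrays in 3 groups of 3 samples from male mice of the BTBR strain aged 22 weeks. The groups were BTBR ob/ob mice given enarodustat in the food for 18 weeks, BTBR ob/ob mice given vehicle food for the same time, and BTBR wild type mice given vehicle food for as long. Glomeruli were collected with Dynabeads, magnetic beads that lodge in their capillaries. Both ob/ob groups share the mutation that removes functional leptin from the whole animal, after which mice of this strain become obese and diabetic. Enarodustat is an inhibitor of prolyl hydroxylase enzymes, and so stabilises hypoxia-inducible factor. Wild-type mice on enarodustat are not among the samples, so a response to the drug can be read in ob/ob glomeruli alone. The labels do not say whether a sample came from 1 mouse or from several, and p-values measure the spread between these samples.

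Endothelial identity is held by transcription factors of the ETS, SOX, GATA and Krüppel-like families, which bind at the genes for junction proteins, surface receptors and anticoagulant proteins of the vessel wall. The endothelium of the glomerulus is thin and pierced by fenestrae, lies on a basement membrane shared with podocytes, and is kept in this state by vascular endothelial growth factor from the podocytes. In diabetic kidney disease the glomerular endothelium is known to lose its surface glycocalyx and its fenestrae and to take on an activated, leukocyte-binding state.

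Promoter sequence was at hand for 16 of the 34 genes in a table made from RefSeq (build GRCm38.p6). The 250 bases before the start are printed for the genes that passed the test in both comparisons with wild type and are in that table. Of these, Cldn5 was lower than wild type and Eng, Ramp3 and Robo4 were higher. Capitals mark matches on either strand to 6 motifs, which are the ETS motif CCGGAAG, the SOX-type motif ACAAAG and its relative with one other base, ACAATG, the motif of GATA factors, which reads AGATAA, the Krüppel-like motif CACCC and the forkhead motif TGTTTAC. Shorter forms of the ETS motif were not searched.
Cldn5 (chr16:18776597-18776846, plus strand): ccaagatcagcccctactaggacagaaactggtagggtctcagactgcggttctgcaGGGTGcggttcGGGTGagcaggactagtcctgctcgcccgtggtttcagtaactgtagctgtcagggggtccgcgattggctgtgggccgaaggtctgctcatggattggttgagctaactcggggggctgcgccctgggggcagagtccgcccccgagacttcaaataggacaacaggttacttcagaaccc
Eng (chr2:32646345-32646594, plus strand): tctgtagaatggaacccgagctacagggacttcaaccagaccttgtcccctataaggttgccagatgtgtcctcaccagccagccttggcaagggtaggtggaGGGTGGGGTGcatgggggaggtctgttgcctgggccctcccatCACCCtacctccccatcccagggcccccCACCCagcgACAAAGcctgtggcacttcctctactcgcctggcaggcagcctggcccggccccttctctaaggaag
Ramp3 (chr11:6658283-6658532, plus strand): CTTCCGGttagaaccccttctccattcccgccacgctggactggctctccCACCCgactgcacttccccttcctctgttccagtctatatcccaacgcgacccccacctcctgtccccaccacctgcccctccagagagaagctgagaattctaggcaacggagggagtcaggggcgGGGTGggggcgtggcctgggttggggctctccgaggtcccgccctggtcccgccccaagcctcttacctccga
Robo4 (chr9:37401722-37401971, plus strand): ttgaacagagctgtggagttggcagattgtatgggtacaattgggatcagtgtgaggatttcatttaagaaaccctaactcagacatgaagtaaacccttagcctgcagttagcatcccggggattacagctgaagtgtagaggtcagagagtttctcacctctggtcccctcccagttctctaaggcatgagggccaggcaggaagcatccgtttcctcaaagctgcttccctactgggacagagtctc
The Cldn5 and Eng windows held CACCC, Eng also held ACAAAG, Ramp3 held CCGGAAG and CACCC, and the Robo4 window held none of the 6 motifs. Over the 21 windows of the 16 genes, CACCC was present in 12, and it was in 52% of 32851 promoter windows of the same length. CCGGAAG was in 1 of 21 windows and 6.91% of all. ACAAAG was in 2 of 21 windows, against 16.5% of all. The other SOX-type motif was in 2 of 21, against 10.7%, and the GATA motif in 2 of 21, against 9.99%. TGTTTAC had no match in the 21 windows and matched 3.17% of all. Some CACCC matches lie side by side. A match describes the letters of the window alone.

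Between 62.3% and 68.3% of probes per array exceeded background by the scanner software's test, and the 75th percentile of the processed signal lay between 210.4 and 325.3 intensity units. The values below are log2 signals minus the 75th percentile of their array. A level compares arrays for 1 gene and is not set against the level of another gene, since probes differ in brightness. Changes are log2 differences ± SE from limma with 3 arrays in each group, and "called" means a Benjamini-Hochberg adjusted p under 0.05 over all 24150 features. Where a pair of changes is given for a gene without naming the groups, it is ob/ob vehicle against wild type and then enarodustat against wild type. All 10 podocyte markers, 10 mesangial and smooth muscle markers and 34 endothelial genes were well above background on all 9 arrays. Markers of lymphatic vessels were less complete, with 3 of 7 on all 9 arrays and none of the 6 Reln probes well above background on any array. In whole glomeruli, fewer cells of a type and less RNA per cell cannot be told apart. Wild-type replicate 3 and enarodustat replicate 2 stood apart in proximal tubule markers, with means of 3.65 and 2.58 over 12 markers, while the other 7 arrays lay between -1.61 and 0.94. The enarodustat group had 2 arrays on 1 slide with the other groups and 1 array on a second slide.

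Most endothelial genes read higher in both ob/ob groups than in wild-type glomeruli, and no endothelial gene was called between the ob/ob groups. In ob/ob vehicle against wild-type glomeruli 8 genes rose (Cd93, Ramp3, Eng, Esam, Vwf, Thbd, Robo4 and Fli1) and 1 fell, Cldn5. Over all features 7.55% were called, 4.89% higher and 2.66% lower. The log2 change was above 0 for 29 of the 34 genes and below 0 for 5, against 52.2% and 47.8% of all features, and 21 genes had an unadjusted p under 0.05, against 23.5% of all features, with a median of 0.39 where the median of all features was 0.016. In ob/ob enarodustat against wild-type glomeruli 10 genes rose and 1 fell, where 10.2% of all features were called, 6.1% higher and 4.09% lower, and 31 of 34 changes were above 0 and 3 below, against 49.4% and 50.6% of all features. An unadjusted p under 0.05 was reached by 22 of the 34, against 26.8% of all features. These comparisons share the wild-type arrays, so that the second is no separate evidence of the first. Between ob/ob enarodustat and ob/ob vehicle glomeruli no gene was called, here or over all features (0%). By array, the mean of the 34 genes was 4.06, 3.87 and 4.12 in enarodustat and 4.06, 3.90 and 3.94 in ob/ob vehicle glomeruli, against 3.67, 3.51 and 3.46 in wild-type glomeruli. The ob/ob arrays lay above the wild-type arrays without overlap in this mean.

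**Figure D1:**
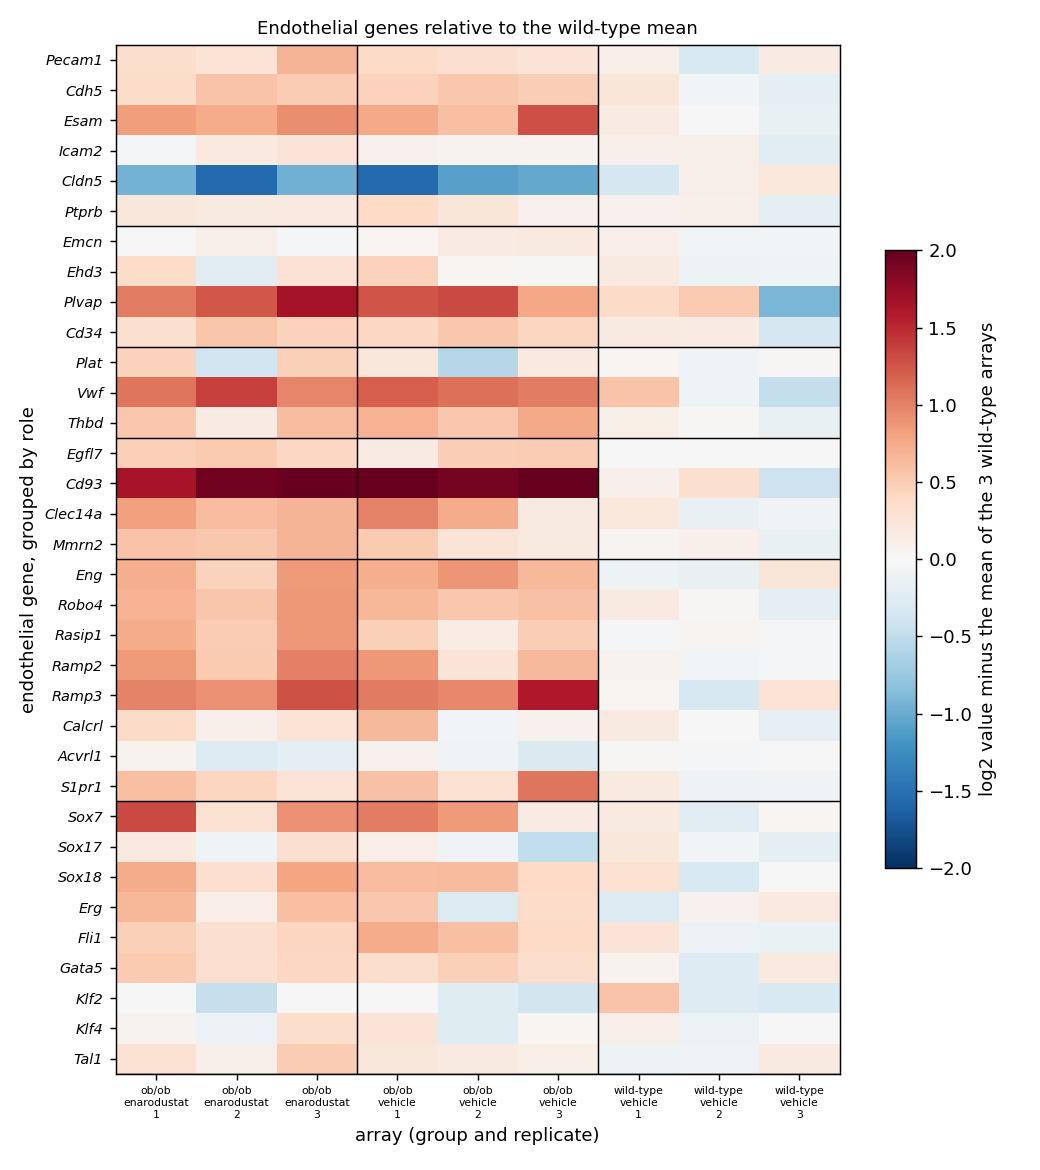
Log2 value of each of the 34 endothelial genes (rows, grouped by role with lines between roles) on each of the 9 arrays (columns), minus the mean of the 3 wild-type arrays for that gene. Red is above the wild-type mean and blue below it, on a scale that ends at 2 in each direction, and the Cd93 row is the reddest and the Cldn5 row the bluest in both ob/ob groups.

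Among the lectin-like and matrix-binding proteins, Cd93 changed the most of all 34 genes. Cd93, a C-type lectin-like receptor that binds the matrix protein multimerin 2 and is also made by myeloid cells, read 4.04, 4.31 and 4.51 in ob/ob enarodustat glomeruli and 4.42, 4.30 and 4.54 in ob/ob vehicle glomeruli, against 2.48, 2.703 and 1.97 in wild-type glomeruli. Neither ob/ob group overlapped with wild type, and every ob/ob array exceeded the highest wild-type array by more than 1 log2 unit. Its change was 2.03 ± 0.20 in ob/ob vehicle against wild type, a 4.1-fold rise (limma adjusted p = 0.00191), and 1.90 ± 0.20 with enarodustat against wild type (adjusted p = 0.00274). Mmrn2, which encodes multimerin 2, read 6.53, 6.497 and 6.64 in ob/ob enarodustat glomeruli and 6.48, 6.20 and 6.12 in ob/ob vehicle glomeruli, against 6.005, 6.05 and 5.80 in wild-type glomeruli. The 3 groups stood in order without overlap, highest with enarodustat and lowest in wild type. Mmrn2 was called with enarodustat against wild type (0.60 ± 0.13, adjusted p = 0.0239), and its difference between ob/ob vehicle and wild type was 0.32 ± 0.13 (adjusted p = 0.184). Clec14a, another C-type lectin-like protein that binds multimerin 2, read 1.29, 1.09 and 1.15 in ob/ob enarodustat glomeruli and 1.47, 1.22 and 0.66 in ob/ob vehicle glomeruli, against 0.69, 0.33 and 0.40 in wild-type glomeruli. The ob/ob vehicle range reached into the wild-type range through replicate 3, and its changes against wild type were 0.64 ± 0.20 in ob/ob vehicle and 0.70 ± 0.20 with enarodustat (adjusted p = 0.0998 and 0.0652). Egfl7, a protein secreted by endothelium into the matrix, read 7.78, 7.84 and 7.72 in ob/ob enarodustat glomeruli and 7.47, 7.81 and 7.82 in ob/ob vehicle glomeruli, against 7.30, 7.32 and 7.31 in wild-type glomeruli. Wild-type arrays were nearly equal and lay below all ob/ob arrays, and Egfl7 was called with enarodustat (0.47 ± 0.12, adjusted p = 0.0428) and had 0.39 ± 0.12 in ob/ob vehicle (adjusted p = 0.092).

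Of the receptors and signalling proteins, 3 of 8 rose in ob/ob vehicle and 5 of 8 in ob/ob enarodustat against wild type, where 4.89% and 6.1% of all features were called higher. Ramp3 and Ramp2 encode membrane proteins that turn the receptor encoded by Calcrl into adrenomedullin receptors, which keep vessels tight and relaxed. Ramp3 read 4.50, 4.42 and 4.78 in ob/ob enarodustat glomeruli and 4.54, 4.47 and 5.10 in ob/ob vehicle glomeruli, against 3.55, 3.19 and 3.78 in wild-type glomeruli. All ob/ob arrays lay above wild type, and Ramp3 rose by 1.20 ± 0.21 in ob/ob vehicle (2.3-fold, limma adjusted p = 0.0131) and by 1.06 ± 0.21 with enarodustat (adjusted p = 0.0188). Its other probe had 1.27 and 1.15 in the same comparisons. Ramp2 read 5.996, 5.67 and 6.15 in ob/ob enarodustat glomeruli and 6.02, 5.41 and 5.79 in ob/ob vehicle glomeruli, against 5.22, 5.09 and 5.13 in wild-type glomeruli. It was called with enarodustat (0.79 ± 0.18, adjusted p = 0.0293) and not in ob/ob vehicle (0.59 ± 0.18, adjusted p = 0.0865), although the wild-type arrays lay lowest in both comparisons. Calcrl itself had changes of 0.22 ± 0.19 and 0.25 ± 0.19 with overlapping groups (adjusted p = 0.533 and 0.458).

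Eng encodes endoglin, a co-receptor that presents bone morphogenetic protein 9 to the kinase receptor encoded by Acvrl1. Eng read 5.87, 5.595 and 5.99 in ob/ob enarodustat glomeruli and 5.87, 6.02 and 5.79 in ob/ob vehicle glomeruli, against 5.04, 4.999 and 5.39 in wild-type glomeruli. No wild-type array reached an ob/ob array, and Eng rose by 0.76 ± 0.15 in ob/ob vehicle (limma adjusted p = 0.0213) and by 0.68 ± 0.15 with enarodustat (adjusted p = 0.0283). Its second probe, tested as its own feature, had 0.68 (adjusted p = 0.0106) and 0.37 (adjusted p = 0.0801). Acvrl1 differed from wild type by -0.088 ± 0.13 in ob/ob vehicle and -0.12 ± 0.13 with enarodustat, neither called (adjusted p = 0.741 and 0.618), with 95% intervals of -0.39 to 0.22 and -0.42 to 0.19. Robo4, a receptor of the roundabout family that stabilises vessels, read 4.89, 4.74 and 5.06 in ob/ob enarodustat glomeruli and 4.86, 4.73 and 4.77 in ob/ob vehicle glomeruli, against 4.37, 4.21 and 3.99 in wild-type glomeruli. Both ob/ob groups lay above wild type without overlap, and it rose by 0.60 ± 0.13 in ob/ob vehicle (adjusted p = 0.0334) and 0.71 ± 0.13 with enarodustat (adjusted p = 0.0149). Rasip1, an effector of Ras-family GTPases needed to open the vessel lumen, read 3.85, 3.62 and 3.98 in ob/ob enarodustat glomeruli and 3.59, 3.26 and 3.60 in ob/ob vehicle glomeruli, against 3.08, 3.16 and 3.09 in wild-type glomeruli. The groups were again in order without overlap, and Rasip1 was called with enarodustat against wild type (0.70 ± 0.14, adjusted p = 0.0171), with 0.37 ± 0.14 in ob/ob vehicle (adjusted p = 0.149). S1pr1, the sphingosine 1-phosphate receptor that strengthens the barrier and also guides lymphocytes, read 3.17, 2.9997 and 2.84 in ob/ob enarodustat glomeruli and 3.15, 2.87 and 3.64 in ob/ob vehicle glomeruli, against 2.75, 2.45 and 2.49 in wild-type glomeruli. Its ob/ob arrays all exceeded the wild-type arrays without a call (0.66 ± 0.20 and 0.44 ± 0.20, adjusted p = 0.0862 and 0.199).

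**Figure D2:**
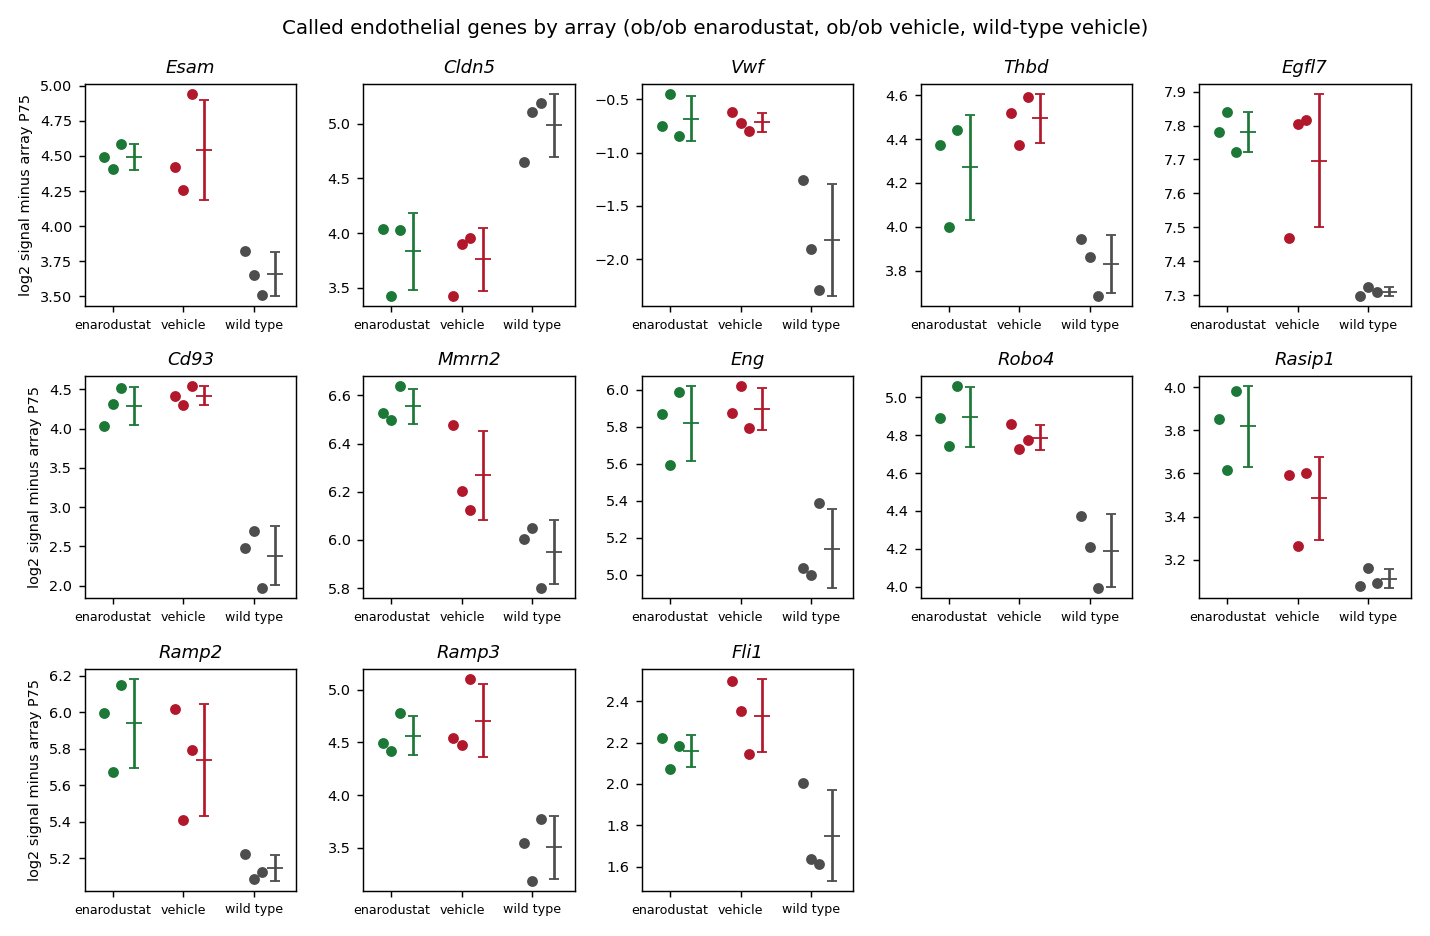
Log2 signal minus the 75th percentile of the array for the 13 genes called in at least 1 comparison with wild type, by group. Points are the 3 arrays of a group and the mark beside them is the mean ± SD (n = 3), and Cldn5 is the panel in which the wild-type points lie above the ob/ob points.

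The junction and adhesion genes were divided. Cldn5 encodes claudin 5, the main tight junction claudin of endothelium, which has also been described in podocytes. It read 4.04, 3.43 and 4.03 in ob/ob enarodustat glomeruli and 3.43, 3.90 and 3.95 in ob/ob vehicle glomeruli, against 4.65, 5.11 and 5.19 in wild-type glomeruli. The lowest wild-type array lay above the highest ob/ob array, and Cldn5 fell by 1.22 ± 0.23 in ob/ob vehicle (limma adjusted p = 0.016) and by 1.15 ± 0.23 with enarodustat (adjusted p = 0.0181). In the same arrays the mean of 10 podocyte markers was 4.91, 4.38 and 5.05 in enarodustat and 4.92, 4.99 and 4.99 in ob/ob vehicle, against 5.67, 5.82 and 5.70 in wild-type glomeruli. Of those podocyte markers 7 fell with enarodustat and 5 in ob/ob vehicle against wild type, where 4.09% and 2.66% of all features were called lower. The part of podocytes in the Cldn5 difference was not tested. Esam, an immunoglobulin-type adhesion molecule of endothelial tight junctions, went the other way and read 4.49, 4.40 and 4.58 in ob/ob enarodustat glomeruli and 4.42, 4.26 and 4.94 in ob/ob vehicle glomeruli, against 3.82, 3.65 and 3.51 in wild-type glomeruli. It was higher on every ob/ob array and rose by 0.88 ± 0.18 in ob/ob vehicle (adjusted p = 0.023) and 0.83 ± 0.18 with enarodustat (adjusted p = 0.0251). Cdh5, which encodes the adherens junction protein VE-cadherin, read 3.68, 3.87 and 3.81 in ob/ob enarodustat glomeruli and 3.76, 3.84 and 3.79 in ob/ob vehicle glomeruli, against 3.55, 3.25 and 3.12 in wild-type glomeruli. The ob/ob arrays were all above wild type, and Cdh5 just missed the threshold with 0.49 ± 0.13 and 0.48 ± 0.13 (adjusted p = 0.0579 and 0.0529). Pecam1, the adhesion molecule CD31 that platelets and leukocytes also carry, read 1.70, 1.62 and 2.02 in ob/ob enarodustat glomeruli and 1.73, 1.66 and 1.60 in ob/ob vehicle glomeruli, against 1.48, 1.04 and 1.498 in wild-type glomeruli. All ob/ob arrays were above the wild-type arrays, and neither change was called (0.32 ± 0.16 and 0.44 ± 0.16, adjusted p = 0.275 and 0.124). Ptprb, a phosphatase that acts on Tie2 and VE-cadherin, read 6.09, 6.04 and 6.06 in ob/ob enarodustat glomeruli and 6.26, 6.11 and 5.95 in ob/ob vehicle glomeruli, against 5.95, 5.96 and 5.69 in wild-type glomeruli. The enarodustat arrays lay above the wild-type arrays, while the ob/ob vehicle arrays overlapped with them, with 0.24 ± 0.12 and 0.20 ± 0.12 (adjusted p = 0.282 and 0.35). Icam2, a constitutive ligand for leukocyte integrins, differed by 0.077 ± 0.13 and 0.14 ± 0.13 with overlapping groups (adjusted p = 0.775 and 0.548). The 95% intervals of its changes were -0.22 to 0.38 and -0.16 to 0.44.

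Of the 3 haemostasis genes, 2 were called in ob/ob vehicle against wild type, Vwf and Thbd, and 1 with enarodustat, Vwf. Over all features 7.55% and 10.2% were called in these comparisons. Plat was called in neither. Vwf, the von Willebrand factor gene, which megakaryocytes also express, read -0.75, -0.45 and -0.85 in ob/ob enarodustat glomeruli and -0.62, -0.72 and -0.80 in ob/ob vehicle glomeruli, against -1.25, -1.91 and -2.29 in wild-type glomeruli. The ob/ob arrays were close together and above all wild-type arrays, which spread over 1 log2 unit. Vwf rose by 1.105 ± 0.24 in ob/ob vehicle (limma adjusted p = 0.0301) and by 1.14 ± 0.24 with enarodustat (adjusted p = 0.0235). Its probes disagree, since a second probe that was well above background on all 9 arrays had 0.031 and -0.069 (adjusted p = 0.936 and 0.836 as its own feature). The platelet marker gene Pf4 was higher too, with 2.63 ± 0.43 in ob/ob vehicle and 1.66 ± 0.43 with enarodustat (adjusted p = 0.00902 and 0.044), and 1 of 5 platelet markers was called in each comparison. Of the 5 platelet changes, 4 were above 0 and 1 below in each comparison. The mean of the 5 markers was -2.52, -2.87 and -2.02 in enarodustat and -1.07, -3.00 and -1.13 in ob/ob vehicle. In wild-type glomeruli it was -3.01, -3.19 and -3.25. The part of platelets in the Vwf difference was not tested. Thbd, the thrombomodulin gene, whose product turns thrombin into an activator of protein C and which monocytes also make, read 4.38, 3.998 and 4.44 in ob/ob enarodustat glomeruli and 4.52, 4.37 and 4.59 in ob/ob vehicle glomeruli, against 3.95, 3.86 and 3.68 in wild-type glomeruli. It did not overlap between wild type and either ob/ob group, and it was called in ob/ob vehicle (0.66 ± 0.15, adjusted p = 0.0303) and not with enarodustat (0.44 ± 0.15, adjusted p = 0.0957). The direct difference between the ob/ob groups was -0.22 ± 0.15 (adjusted p = 0.771). Plat, tissue plasminogen activator, which glomerular endothelium makes in quantity, read 6.64, 5.79 and 6.65 in ob/ob enarodustat glomeruli and 6.41, 5.61 and 6.38 in ob/ob vehicle glomeruli, against 6.22, 6.12 and 6.20 in wild-type glomeruli. Replicate 2 was the lowest array of each group, and the groups overlapped, with changes of -0.048 ± 0.28 and 0.18 ± 0.28 and a second probe at -0.26 and -0.49 (none called).

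The 4 surface and trafficking genes had no call. Against wild type 7.55% of all features were called in ob/ob vehicle and 10.2% with enarodustat. Plvap, which forms the diaphragms of fenestrae and is scarce in mature glomerular capillaries, read 4.10, 4.31 and 4.73 in ob/ob enarodustat glomeruli and 4.32, 4.39 and 3.85 in ob/ob vehicle glomeruli, against 3.45, 3.59 and 2.16 in wild-type glomeruli. Wild-type replicate 3, the array highest in tubule markers, was the lowest, and the ob/ob arrays did not overlap with wild type. The changes of Plvap were 1.12 ± 0.37 and 1.31 ± 0.37 (limma adjusted p = 0.108 and 0.0585), neither called. Cd34, a sialomucin of capillaries and progenitor cells, read 6.16, 6.41 and 6.31 in ob/ob enarodustat glomeruli and 6.27, 6.39 and 6.29 in ob/ob vehicle glomeruli, against 6.02, 6.02 and 5.51 in wild-type glomeruli. Its ob/ob arrays exceeded wild type, with 0.46 ± 0.16 and 0.44 ± 0.16 (adjusted p = 0.114 and 0.11). Emcn, the sialomucin endomucin, differed by 0.13 ± 0.10 and 0.036 ± 0.10, and Ehd3, a membrane trafficking protein typical of glomerular endothelium, by 0.17 ± 0.19 and 0.15 ± 0.19. Both had overlapping groups, and their 95% intervals in ob/ob vehicle against wild type were -0.11 to 0.37 for Emcn and -0.26 to 0.61 for Ehd3.

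In ob/ob vehicle against wild type 1 of the 9 transcription factors was called, Fli1, where 7.55% of all features were. With enarodustat against wild type 0 of the 9 were called, where 10.2% of all features were. Fli1, an ETS factor that blood cells also express, read 2.22, 2.07 and 2.18 in ob/ob enarodustat glomeruli and 2.49, 2.35 and 2.14 in ob/ob vehicle glomeruli, against 2.003, 1.64 and 1.61 in wild-type glomeruli. It did not overlap with wild type in either ob/ob group and rose by 0.58 ± 0.15 in ob/ob vehicle (limma adjusted p = 0.0478), with 0.41 ± 0.15 with enarodustat (adjusted p = 0.115). Erg, the related ETS factor that is central to endothelial identity, had 0.21 ± 0.24 and 0.46 ± 0.24 with overlapping groups (adjusted p = 0.655 and 0.264). The SOXF factors, which specify arterial and other endothelium, differed in their values. Sox18 read 3.52, 3.11 and 3.57 in ob/ob enarodustat glomeruli and 3.40, 3.42 and 3.17 in ob/ob vehicle glomeruli, against 3.08, 2.48 and 2.78 in wild-type glomeruli. Sox7 read 1.36, 0.35 and 0.95 in ob/ob enarodustat glomeruli and 1.06, 0.89 and 0.21 in ob/ob vehicle glomeruli, against 0.22, -0.18 and 0.088 in wild-type glomeruli. Both lay above wild type on all enarodustat arrays, and Sox18 also on all ob/ob vehicle arrays, with changes of 0.55 ± 0.19 and 0.62 ± 0.19 for Sox18 and 0.68 ± 0.29 and 0.85 ± 0.29 for Sox7. Their adjusted p values were 0.116, 0.0711, 0.207 and 0.108. Sox17 had -0.14 ± 0.19 and 0.15 ± 0.19 with all groups overlapping. Gata5, a GATA factor of glomerular endothelium, read 0.63, 0.44 and 0.51 in ob/ob enarodustat glomeruli and 0.46, 0.58 and 0.46 in ob/ob vehicle glomeruli, against 0.17, -0.15 and 0.30 in wild-type glomeruli. It stood above wild type without overlap in both ob/ob groups and was not called (0.40 ± 0.13 and 0.42 ± 0.13, adjusted p = 0.118 and 0.0849). Klf2 and Klf4, which rise with laminar shear stress and hold endothelium quiescent, differed by -0.20 ± 0.25 and 0.012 ± 0.17 in ob/ob vehicle and by -0.15 ± 0.25 and 0.10 ± 0.17 with enarodustat. Tal1, a factor of blood and endothelial progenitors, differed by 0.17 ± 0.13 and 0.31 ± 0.13. Klf2, Klf4 and Tal1 had no call, and their groups overlapped.

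**Figure D3:**
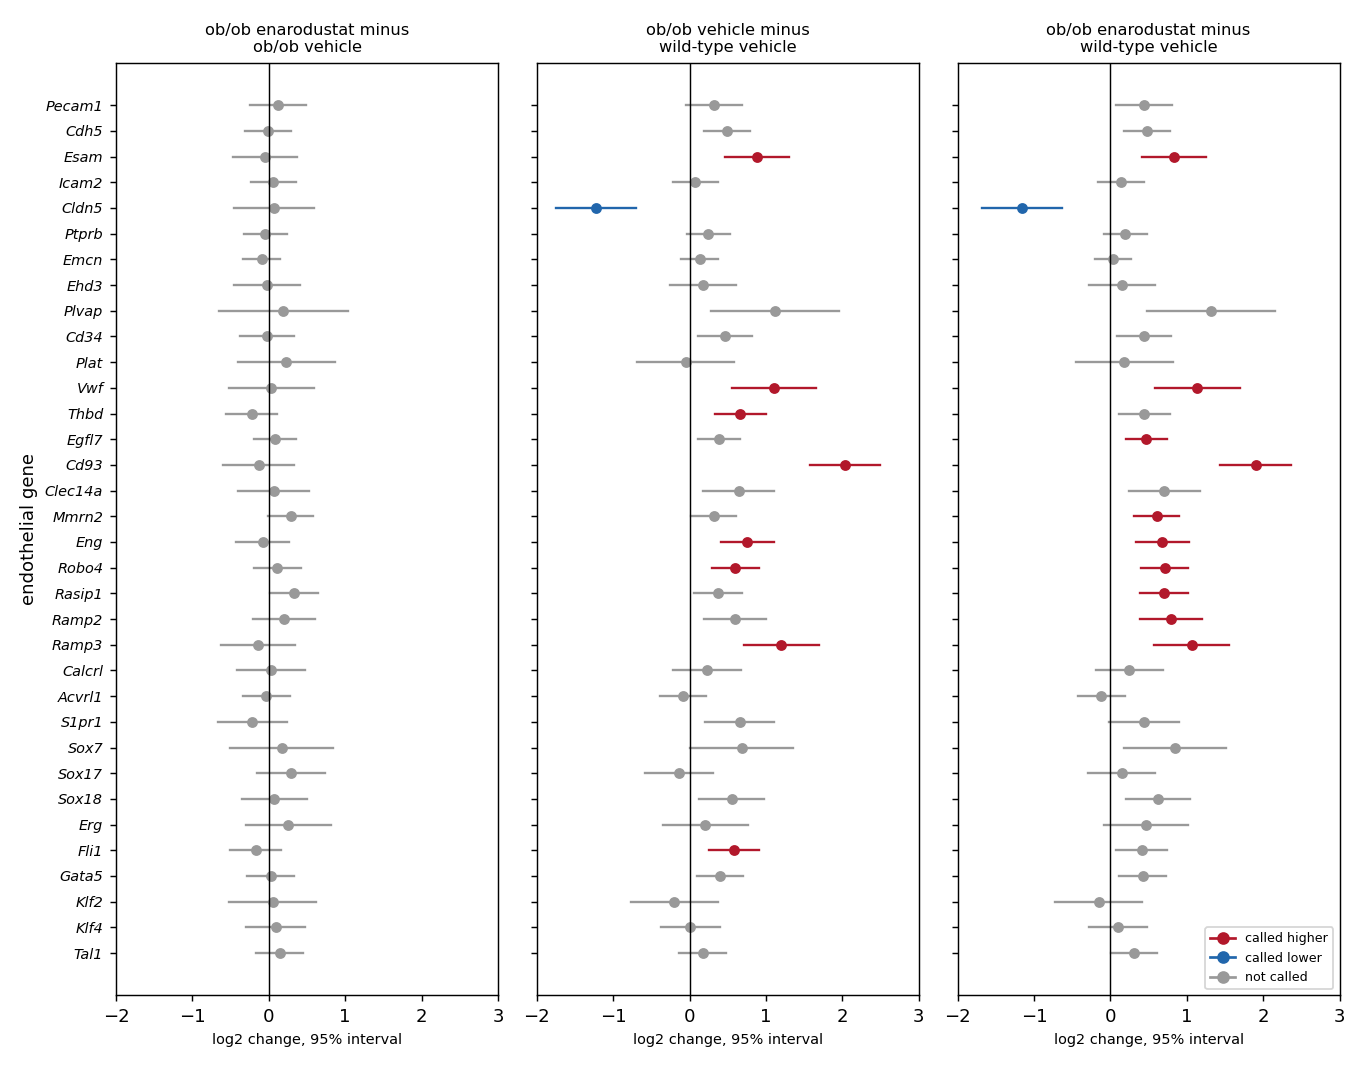
Log2 change (points) with its 95% interval from limma (lines) for the 34 endothelial genes in the 3 comparisons, with genes called higher in red, called lower in blue and not called in grey. The changes of enarodustat against ob/ob vehicle lie between -0.22 and 0.33 and none is called, while most changes against wild type lie right of 0.

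The comparison of ob/ob enarodustat with ob/ob vehicle glomeruli asks whether the drug moved these genes. The changes ran from -0.22 (Thbd) to 0.33 (Rasip1), with a median of 0.056 where all features had -0.027. They were above 0 for 21 genes and below 0 for 13, against 44.7% and 55.3% of all features. No adjusted p was below 0.708. Rasip1 had the smallest unadjusted p among the 34 genes, 0.0417, and was the 1 gene with an unadjusted p under 0.05, where 7.01% of all features had one. The groups did not overlap for Rasip1 (0.33 ± 0.14, 95% interval 0.016 to 0.65) and Mmrn2 (0.29 ± 0.13, -0.0096 to 0.58), both higher with the drug, where 6.5% of all features were higher and 9.49% lower without overlap. For the genes furthest from wild type in ob/ob vehicle the drug difference was small, -0.13 ± 0.20 for Cd93 (95% interval -0.59 to 0.33), 0.072 ± 0.23 for Cldn5 (-0.45 to 0.60) and -0.14 ± 0.21 for Ramp3 (-0.63 to 0.35). The 95% interval stayed below a 2-fold rise for 33 of the 34 genes, all but Plvap (-0.65 to 1.03), and none of the 34 reached a 2-fold fall. Within the enarodustat group, replicate 2 was the lowest of the 3 arrays for 25 of 34 genes. In the other groups the array most often lowest was replicate 3, for 17 genes in ob/ob vehicle and 15 in wild type. Enarodustat replicate 2 also had the lowest podocyte mean of its group and the highest proximal tubule mean, whose part in the comparison was not tested. The mean of 8 distal nephron markers was 1.57, 2.53 and 1.77 with enarodustat, against -1.55, 0.33 and 0.68 in ob/ob vehicle. The 2 groups did not overlap in this mean. All 8 markers were higher with enarodustat, with a median change of 2.30 where all features had -0.027, and none was called. The part of distal nephron RNA in the comparison was not tested.

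Counted over the groups that do not overlap, 19 of the 34 genes lay higher and 1 lower on all ob/ob vehicle arrays than on all wild-type arrays, where 17.8% of all features lay higher and 12.9% lower. With enarodustat against wild type the counts were 22 and 1, where 16.8% and 14% of all features did so. Of the 13 genes called against wild type in either comparison, 7 were called in both, namely Cd93, Cldn5, Eng, Esam, Ramp3, Robo4 and Vwf. Both comparisons use the same wild-type arrays, so that a gene called in both has no separate evidence from the second. Fli1 and Thbd were called in ob/ob vehicle alone and Egfl7, Mmrn2, Ramp2 and Rasip1 with enarodustat alone. Since the direct comparison of the ob/ob groups called none of these 6 genes, they are not shown to differ between them.

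Many of these calls were lost when a single array was left out. Cd93 stayed called in both comparisons, and Ramp3 in ob/ob vehicle against wild type, when any 1 of the 9 arrays was left out. In ob/ob vehicle against wild type, the call of Cldn5 did not survive the removal of wild-type replicate 2 (change -1.16, limma adjusted p = 0.0622) or 3 (-1.12, 0.0569), or of replicate 1 of the ob/ob vehicle group (-1.06, 0.0583). The removal of any of the same 3 arrays ended the call of Esam (changes 0.88, 0.81 and 0.94, adjusted p up to 0.0752). For Eng, removing replicate 1 or 2 of wild type, or replicate 1 or 2 of ob/ob vehicle, ended the call (0.68 to 0.77, adjusted p up to 0.0797). For Thbd, removing replicate 2 or 3 of wild type, or any of the ob/ob vehicle arrays, did so (0.59 to 0.73, up to 0.099). Robo4 and Vwf lost their calls on removing any of those 5 arrays or enarodustat replicate 1 (0.50 to 0.63 and 0.87 to 1.15, adjusted p up to 0.112 and 0.0994). Fli1 kept its call on removing wild-type replicate 1 and no other array (0.50 to 0.67 in the refits that lost it, up to 0.151). With wild-type replicate 2 left out, 2 of the 34 genes were called, beside 4% of all features, and with ob/ob vehicle replicate 1 left out also 2, beside 3.79%, where 9 were called with all arrays. It was 3 without wild-type replicate 3 (4.87% of all features) and 5 without ob/ob vehicle replicate 2 (4.92%). The counts of 2 of 34 are near the share of all features.

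In ob/ob enarodustat against wild type, leaving out wild-type replicate 2 left 1 of the 11 calls (Cd93), leaving out enarodustat replicate 3 left 2 (Cd93 and Cldn5), leaving out enarodustat replicate 1 left 4 and leaving out wild-type replicate 3 left 6. In those refits 5.03%, 5.65%, 6.04% and 7.92% of all features were called, so that 1 and 2 of 34 are near the background. Egfl7 kept its call on removing replicate 1 of ob/ob vehicle and no other array (changes 0.44 to 0.50 in the refits that lost it, limma adjusted p up to 0.108). Robo4 (0.72 and 0.63, adjusted p up to 0.051) and Ramp3 (0.90 and 0.95, up to 0.0655) lost theirs on removing wild-type replicate 2, and also on removing enarodustat replicate 3. Rasip1 did so for these and for enarodustat replicate 1 (0.62 to 0.73, up to 0.0578). The call of Cldn5 ended on removing wild-type replicate 2 or 3 (-1.09 and -1.05, up to 0.0647). That of Vwf ended on removing wild-type replicate 2 or any of the enarodustat arrays (1.02 to 1.22, up to 0.0759). Esam and Mmrn2 lost their calls for these and for wild-type replicate 3 (0.76 to 0.88 and 0.53 to 0.65, up to 0.0804 and 0.0771). For Eng it was replicate 1 or 2 of wild type and replicate 1 or 3 of enarodustat (0.59 to 0.65, up to 0.093). Ramp2 added wild-type replicate 3 to those (0.69 to 0.83, up to 0.0934).

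Position on the slide went partly with group. The 3 wild-type arrays and ob/ob vehicle replicate 1 have position numbers of the first set on 1 slide, per the file headers, and ob/ob vehicle replicates 2 and 3 with enarodustat replicates 1 and 2 those of the second set, while enarodustat replicate 3 lies on another slide. With slide and position as blocks none of the 34 genes was called against wild type, and 74 of all features (0.306%) were called in ob/ob vehicle. In that fit the contrast with wild type rests on the 1 ob/ob vehicle array that lies among the wild-type arrays, with changes of 2.03 for Cd93 (limma adjusted p = 0.0615) and -1.56 for Cldn5 (adjusted p = 0.0908). Within the first set of positions ob/ob vehicle replicate 1 differed from the wild-type mean by a median of 0.50, where all features had 0.011. This rests on 1 array, the highest of its group in the mean of the 34 genes (4.06, against 3.90 and 3.94). The differences of ob/ob vehicle replicate 1 from the wild-type mean were 2.03 for Cd93, 1.04 for Ramp3, -1.56 for Cldn5, 0.73 for Eng, 0.76 for Esam, 1.20 for Vwf, 0.69 for Thbd, 0.67 for Robo4 and 0.74 for Fli1. Within the second set, enarodustat replicates 1 and 2 differed from ob/ob vehicle replicates 2 and 3 by a median of 0.043. No enarodustat array lies on the same slide and in the same set of positions as a wild-type array, so that for this pair of groups position and group cannot be told apart without the ob/ob vehicle arrays.

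Partners of these genes were taken from 8 lists by pathway. Over all features 4.89% were called higher and 2.66% lower in ob/ob vehicle against wild type, and 6.1% and 4.09% with enarodustat. Of the haemostasis and fibrinolysis list, 5 of 12 tested genes were higher and 1 lower in ob/ob vehicle and 4 higher and 1 lower with enarodustat against wild type. F2r, the thrombin receptor, rose by 1.58 ± 0.19 in ob/ob vehicle (limma adjusted p = 0.00367), Entpd1, which degrades ATP at the vessel surface, by 1.097 ± 0.14 and Procr, the protein C receptor, by 1.07 ± 0.18. The gene that fell was F3, tissue factor (-1.14 ± 0.28, adjusted p = 0.0424). The list had a median change of 0.60 in ob/ob vehicle, beside 0.016 over all features, and 0.44 with enarodustat, beside -0.0056. With enarodustat against wild type the same named genes had 1.17, 1.02, 0.80 and -1.23, all called.

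Of 15 tested genes of the bone morphogenetic protein 9 pathway 1 rose in each comparison with wild type, Smad1, a transcription factor that carries the signal of the receptor pair of Eng and Acvrl1 (0.50 ± 0.12 in ob/ob vehicle and 0.53 ± 0.12 with enarodustat, limma adjusted p = 0.0478 and 0.0336). Of 5 tested adrenomedullin and calcitonin gene-related peptide genes none was called, and Adm, the ligand gene and a known hypoxia target, had 0.68 ± 0.36 in ob/ob vehicle against wild type and -0.69 ± 0.36 with enarodustat against ob/ob vehicle (adjusted p = 0.304 and 0.739). Of 9 sphingosine 1-phosphate genes 2 rose in ob/ob vehicle, S1pr2, another receptor (0.94 ± 0.20), and Sgpl1, the lyase (0.59 ± 0.13), and 1 with enarodustat, Sphk1, a kinase that makes the ligand (2.09 ± 0.52, adjusted p = 0.041). Of 12 other junction genes 1 rose in each, the scaffold gene Magi1 (0.64 ± 0.14 and 0.82 ± 0.14). Of 7 Slit and Robo genes 2 fell in ob/ob vehicle, Robo2 (-0.74 ± 0.14), a receptor that podocytes make, and Flrt2 (-0.61 ± 0.14). With enarodustat Flrt2 (-1.06 ± 0.14) and Robo2 (-1.06 ± 0.14) fell and the ligand gene Slit2 rose (2.08 ± 0.55, adjusted p = 0.0486). Of 20 partners and kinases of the transcription factors 2 rose in ob/ob vehicle, Lyl1, a relative of Tal1 (0.99 ± 0.15), and Mef2a (0.60 ± 0.14), and 3 with enarodustat, Lyl1 (1.15 ± 0.15), Gata2 (0.68 ± 0.17) and Gata6 (0.95 ± 0.25). Of 9 Notch genes none was called in ob/ob vehicle, and Notch4, a receptor of endothelium, rose with enarodustat against wild type (0.87 ± 0.18, adjusted p = 0.0229). The median changes of these other 7 lists lay between 0.068 and 0.34 in ob/ob vehicle and between -0.028 and 0.34 with enarodustat against wild type. The counts of these lists stand beside 4.89% of all features called higher and 2.66% lower in ob/ob vehicle, and 6.1% and 4.09% with enarodustat. No list was tested as a set. None of the tested genes of the 8 lists was called between ob/ob enarodustat and ob/ob vehicle, where no feature was called.

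Genes of other cell types moved in the same arrays, and some endothelial genes are shared with these cells. The counts below stand beside 4.89% of all features called higher and 2.66% lower in ob/ob vehicle, and 6.1% and 4.09% with enarodustat. The mean of 10 macrophage markers was 1.87, 1.57 and 1.24 in enarodustat and 2.14, 1.82 and 1.80 in ob/ob vehicle, against 0.51, 0.61 and 0.078 in wild-type glomeruli, and 6 of them rose with enarodustat and 8 in ob/ob vehicle against wild type. Their part in the higher Cd93, Thbd, Fli1 and Pecam1 values was not tested. The proximal tubule mean was 0.25, 2.58 and 0.12 in enarodustat and 0.20, 0.75 and -1.61 in ob/ob vehicle, against 0.94, 0.55 and 3.65 in wild-type glomeruli, and none of the 12 markers was called. With that mean as a covariate 1 of the 34 genes was called in ob/ob vehicle against wild type, Cd93, and 10 with enarodustat, beside 2.87% and 9.3% of all features. Leaving out both arrays that stood apart in tubule markers, 5 were called in each comparison with wild type, beside 5.28% of all features in ob/ob vehicle and 5.35% with enarodustat. Markers of other vessels were divided. Of 6 arterial markers 3 rose in each comparison with wild type (Fbln5, Bmx and Gja4), while Sema3g had -0.52 and -0.61 (adjusted p = 0.122 and 0.0679) and Efnb2 -0.020 and -0.038, not called. Of 6 venous and peritubular markers 2 rose (Cyp1b1 and Igfbp3), and Ackr1 had -0.40 and -0.66 (adjusted p = 0.379 and 0.135). In ob/ob vehicle the matrix gene Fbln5 changed by 1.72 ± 0.28 and the gap junction gene Gja4 by 0.53 ± 0.12 (limma adjusted p = 0.00876 and 0.0322). Of 4 tested lymphatic markers Flt4 rose (0.81 ± 0.20) and Pdpn, which podocytes also express, fell (-0.89 ± 0.21) with enarodustat against wild type (adjusted p = 0.0409 and 0.0333), and none was called in ob/ob vehicle. In that comparison 4 of 5 tested erythrocyte markers and 1 of 8 distal nephron markers, Pvalb, also rose, while none of either list was called in ob/ob vehicle against wild type. Of the mesangial and smooth muscle markers Acta2 and Ren1 rose in each comparison with wild type, 2 of 10. The mean of the 10 was 3.46, 3.31 and 3.71 in enarodustat and 3.64, 3.62 and 3.08 in ob/ob vehicle. In wild-type glomeruli it was 2.98, 2.93 and 2.21, below all ob/ob arrays. The median change of this list was 0.49 in ob/ob vehicle and 0.73 with enarodustat, where the 34 endothelial genes had 0.39 and 0.44.

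**Figure D4:**
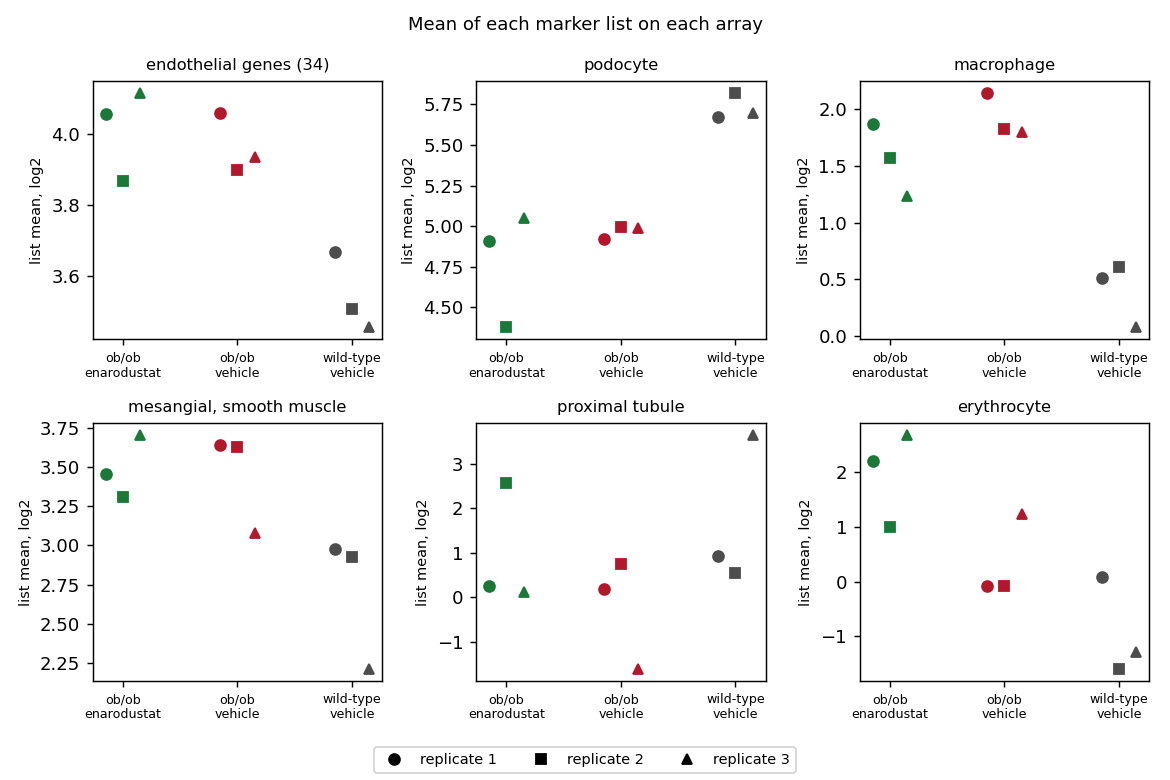
Mean log2 value of 6 marker lists on each array, by group, with a symbol for each replicate number. The endothelial, macrophage and mesangial and smooth muscle means lie higher and the podocyte mean lower in both ob/ob groups than in wild type. The proximal tubule mean is highest in wild-type replicate 3 and enarodustat replicate 2.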

How the data were processed

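Glomerular RNA was measured on 9 one-colour (Cy3) Agilent arrays, 3 per group, per the labels' protocols. The authors used Agilent Feature Extraction (version 11.5.1.1 by the headers) for each deposited file, whose processed signal is a linear intensity, background-subtracted and not normalized between arrays. The deposited value table holds log2 values. Compared with the scanner output, every column was the log2 processed signal minus a constant close to the array's 75th percentile, with no centring of genes. The medians of its columns were -3.04, -2.95 and -3.05 (ob/ob enarodustat), -3.10, -3.07 and -3.06 (ob/ob vehicle), and -3.07, -3.03 and -2.93 (wild type). limma is listed in the submitters' processing notes too.

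Spots marked as outliers were left out, spots of a probe averaged, and 32 probes removed whose spots on some array were all outliers, which left 56573. Probes entered the test when they were well above background throughout 1 group or more. Each gene was represented by the brightest such probe, by its mean over 9 arrays. Names follow RefSeq (assembly GRCm38.p6), and 47 probes carry the 34 names in the files. Of all probes used, names came by accession (32975), symbol (10221), synonym (518) or from the file (2573), and 10286 stayed unnamed. limma 3.58.1 (R 4.3.3) fitted 3 groups to all 9 arrays without a replicate block, with Benjamini-Hochberg adjustment over 24150 features, after a check on simulated data. Figures were drawn with matplotlib 3.10.9. The 34 genes, the lists and the alternatives were chosen with earlier results of these data known. Genes were described by array when called or not overlapping in a comparison, and up to 4 called genes per partner list were named by smallest p, while Adm and genes of the other cell lists were named after their values were seen. The values of 1 gene of these lists are not reported here. Arrays share replicate numbers, but same-numbered arrays did not deviate together (correlations of deviations from -0.31 to 0.27). The number of arrays limits the precision.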

Additional observations from a re-analysis of the deposited data

How the results depend on the processing

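Over all 34 genes and 22 alternatives, the sign of a change turned in 20 of 748 refits in ob/ob vehicle against wild type (6 genes), in 70 between enarodustat and ob/ob vehicle (21 genes) and in 17 with enarodustat against wild type (6 genes), in each case for genes that were not called. Over the 45 changes whose groups did not overlap, so that leaving out an array cannot turn their sign, 156 of 990 refits lost a call and 27 gained one. The calls of the 34 genes in ob/ob vehicle against wild type, 9 in the analysis reported, were 3 without a filter on dim probes, 18 with array weights, 1 with proximal tubule markers as a covariate, 5 with both tubule-rich arrays (replicate 3 of wild type and replicate 2 of enarodustat) left out, and 2 to 9 when single arrays were left out. With enarodustat against wild type, 11 as reported, they were 5 without the filter, 2 with the slide as a block, 20 with array weights, 5 without the same pair of arrays, and 1 to 11 with single arrays left out. With slide and position on the slide as blocks, an alternative chosen after seeing the data, 0 were called in both, and 74 and 0 of all features. Under every alternative 0 of the genes were called between enarodustat and ob/ob vehicle. In the analysis reported, an unadjusted limma p under 0.05 was reached by 1 gene in that comparison, beside 7.01% of all features. The replicate block left 6 and 9 calls in the comparisons with wild type, beside 1408 and 1954 of all 24150 features. The cause of these shifts was not tested. The median change of all features moved by less than 0.1 under each scaling. Called over all 24150 features were 1823 and 2461 as reported, against 4181 and 4527 with array weights, 916 to 1774 and 1215 to 2163 with single arrays left out, 694 in ob/ob vehicle with the tubule covariate, and 1365 and 1292 with enarodustat with the slide block and without the pair. Without the filter 1005 and 1227 features were called, out of more features than in the analysis reported. All 34 genes were well above background on all arrays, so that signal over background does not limit them.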
